A study of Mus musculus with 8 samples.

Results

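In the transcriptomes of murine pancreatic ductal adenocarcinoma (PDAC) cells, 10 of the 34478 genes in the deposited table stood at a low level in every control library and above a fixed, higher level in every library treated with the MEK inhibitor trametinib. They are Plppr3, Acta1, the gene listed as Sep 04, Dchs2, P2rx5, Pcdhb16, Podxl2, Cacna2d4, Fhod3 and Pcdhb18. A gene was taken when each DMSO value was under 10 normalized counts and each trametinib value was 30 normalized counts or more. Genes meeting both thresholds numbered 14, or 0.0406% of the table, and 4 of them (Cnn1, Myl9, Wnt16 and Kcns1) were then dropped by name. The 10 genes were thus chosen by their measured levels in all 8 libraries, and their difference between treatments is given as a description and was not tested. A lowest trametinib value above the highest DMSO value, which the choice fixes for the 10 genes, was found for 8.16% of the table and for 15.1% of the genes whose mean reached 10.

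The cells were 4 primary lines, #1, #3, #5 and #10, that had been grown out of PDAC tumor pieces of genetically engineered mice with the alleles Ptf1awt/Cre and Trp53loxP/loxP, in which Cre under the pancreatic gene Ptf1a removes Trp53. Every line carried these alleles in both treatments, so no library came from cells with normal Trp53. The lines received DMSO, the solvent, or trametinib at the IC50 of each line for 48 h, and polyA RNA was sequenced. Each line gave 1 library per treatment, the doses themselves are not given here, the labels name neither the age of the mice nor the mouse behind each line, and only cultured tumor cells were measured.

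Trametinib blocks MEK1 and MEK2, the kinases that activate ERK in the MAPK cascade. ERK acts on transcription factors and is best known for driving growth and division. The 10 genes belong to no single pathway, a statement that leaves out Cnn1, Myl9, Wnt16 and Kcns1, which were dropped by name. Acta1, Fhod3 and, if its name is read as a septin, Sep 04 are genes of the cytoskeleton. Pcdhb16, Pcdhb18, Dchs2 and Podxl2 code for adhesion proteins of the cell surface, P2rx5 and Cacna2d4 for subunits of ion channels, and Plppr3 for a membrane protein best known from neurons.

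The libraries summed to 30680091 to 36385719 normalized counts. From the step between low values, 1 read was worth 0.775 to 1.24 normalized counts, so the libraries held an estimated 29300000 to 45900000 reads, and 3 reads, the smallest level taken as distinct from 0, were worth 2.33 to 3.72 normalized counts. This floor covers counting error only. Of 11 markers of ductal epithelium, summed levels were 266120 to 405313 under DMSO and 140654 to 270338 with trametinib, lower in each line, while the marker Epcam was at 0 in lines #1, #5 and #10 and at 10.4 and 3.75 in line #3. Of 9 acinar markers, 7 stayed under 10 in every library.

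**Figure D1:**
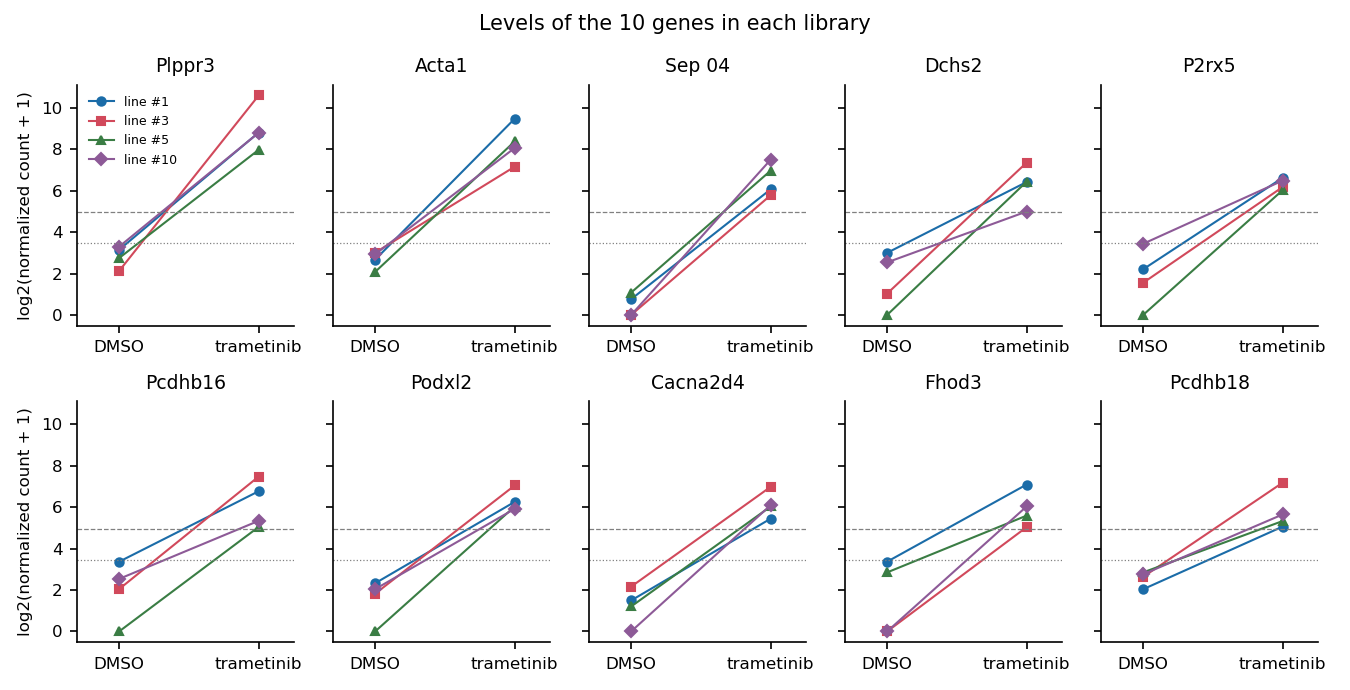
Levels of the 10 genes in each of the 8 libraries, as log2(normalized count + 1) on the vertical axis, with DMSO on the left and trametinib on the right of each panel and 1 line of points per cell line. The dotted line marks 10 and the dashed line 30 normalized counts. Every DMSO point lies below the dotted line and every trametinib point above the dashed line, as the choice of the genes requires.

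Under DMSO most of these genes were low rather than silent. Of their 40 DMSO values, 9 were at 0, 17 (those at 0 included) did not exceed the floor of 3 reads of their library, and 14 were over 5 normalized counts. Sep 04 alone had no DMSO value above the floor. Plppr3 and Pcdhb18 were above the floor in all 4 DMSO libraries, and 7 of the genes were at 0 in at least 1 DMSO library. They are therefore called genes low under DMSO. By its DMSO median, Sep 04 stood at percentile 28.7 of all genes of the table and Plppr3 at percentile 53.3, with the other 8 genes between them. By trametinib medians the percentiles ran from 63.6 for Pcdhb18 to 74.2 for Plppr3, so the treated levels of the 10 genes were moderate within the table.

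In bulk RNA, a larger share of cells that express a gene and more of its RNA per cell cannot be told apart. The change in a line is given as log2((trametinib + 1)/(DMSO + 1)). Adding 1 makes the change of low genes look smaller than it is. Where 4 values follow each other, they are those of lines #1, #3, #5 and #10. Over the 4 lines the mean of this change ran from 3.23 for Pcdhb18 to 6.21 for Plppr3. The place of Plppr3 at the top depended on the settings, since Sep 04 was above it with a pseudocount of 0.1 (8.23 against 6.42), after quantile normalization (6.05 against 5.95) and without line #3 (6.23 against 5.46). The median of the 10 means was 4.71, and the median was 0.07 over the 15888 genes whose mean reached 10. All 10 genes passed that filter, but only through their trametinib libraries.

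Acta1 codes for the actin of skeletal muscle thin filaments and, per kilobase of exon, had the highest trametinib median of the 9 genes with a known length, at 194 normalized counts per kb. Under DMSO it stood at 5.36, 7.03, 3.22 and 6.62 normalized counts in lines #1, #3, #5 and #10. With trametinib it stood at 708, 141, 330 and 265 in the same order. Line #1 was highest and line #3 lowest, and even the lowest trametinib value was 20.1 times the highest DMSO value. The mean log2 change was 5.59 ± 1.19 (SD, n = 4 lines). The gene lies on the minus strand at chr8:123891769-123894751 (GENCODE M21, GRCm38). Of its 31-base words, 4.11% also occurred in transcripts of other genes, most of them in Actb, so a small part of its reads could be shared between actins.

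Fhod3, a formin that assembles actin filaments in the sarcomeres of heart muscle, was at 9.31, 0, 6.21 and 0 under DMSO in lines #1, #3, #5 and #10. With trametinib it was at 135, 31.8, 47.2 and 64.5. Its lowest treated library, line #3, was 3.41 times its highest DMSO library, line #1, which was the narrowest gap among the 10 genes. The mean log2 change was 4.38 ± 1.45 (SD, n = 4). Fhod3 lies on the plus strand at chr18:24708623-25133501.

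The gene listed as Sep 04 was the one closest to silence. Its DMSO values were 0.694, 0, 1.11 and 0, and its trametinib values 65.8, 53.9, 124 and 179, with lines #10 and #5 above lines #1 and #3. The symbol is a date, as spreadsheet software writes over names of the septin family, whose proteins form filaments beneath the cell membrane. The table held 13 such dates. The only annotated symbol that turns into this one is Sept4, which the table does not list, but the identity was not settled and no position is given.

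Pcdhb16 and Pcdhb18 are clustered protocadherins, single-exon genes whose cadherin repeats mediate binding between like cells and are best known from neurons. Pcdhb16 (chr18:37477814-37483038, plus strand) was at 9.31, 3.13, 0 and 4.80 under DMSO and at 108, 177, 32.0 and 39.5 with trametinib in lines #1, #3, #5 and #10. Pcdhb18 (chr18:37489465-37494505, plus strand) was at 3.10, 5.21, 6.21 and 5.76 under DMSO and at 32.4, 144, 39.2 and 49.1 with trametinib. Line #3 was highest with trametinib for both. Line #1 came second for Pcdhb16 and last for Pcdhb18. The mean log2 changes were 4.17 ± 1.27 and 3.23 ± 0.90 (SD, n = 4). Of the 31-base words, 6.26% for Pcdhb16 and 8.56% for Pcdhb18 were shared with other genes, the most with Pcdhb20 and Pcdhb17 respectively, so counts could be split between near copies.

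Dchs2 codes for a very large cadherin of the dachsous type, which binds fat cadherins across cell borders in planar cell polarity. Its DMSO values were 6.99, 1.04, 0 and 4.80 and its trametinib values 84.4, 163, 85.5 and 30.8. Line #10 was far below the others and close to the threshold of 30, and the mean log2 change of 4.66 ± 2.03 (SD, n = 4) had the largest SD of the 10 genes. Dchs2 spans chr3:83127948-83357209 on the plus strand.

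Podxl2, or endoglycan, a sialomucin of the CD34 family that can carry selectin ligands, was at 4.01, 2.53, 0 and 3.12 under DMSO and at 75.2, 131, 64.3 and 59.4 with trametinib. Its highest treated value, in line #3, was 2.21 times its lowest, in line #10. The mean log2 change was 4.76 ± 1.05 (SD, n = 4), and the lowest treated value was 14.8 times the highest DMSO value. It lies on the minus strand at chr6:88842558-88875044.

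P2rx5 codes for a subunit of the P2X receptors, cation channels that open when extracellular ATP binds. It stood at 3.60, 1.93, 0 and 9.80 under DMSO and at 97.3, 71.2, 64.0 and 88.5 with trametinib. The treated libraries were the most alike of all 10 genes, with a highest to lowest ratio of 1.52, whereas the DMSO libraries ran from 0 in line #5 to just under the threshold in line #10. The mean log2 change was 4.53 ± 1.22 (SD, n = 4). The gene lies on the plus strand at chr11:73160421-73172685, and none of its 31-base words were shared with another gene.

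Cacna2d4, an auxiliary alpha2delta subunit that helps bring voltage-gated calcium channels to the cell surface and is known from photoreceptors, was at 1.82, 3.47, 1.30 and 0 under DMSO. With trametinib it was at 42.5, 125, 64.4 and 67.2. Line #3 was highest and line #1 lowest, and the mean log2 change was 4.92 ± 0.88 (SD, n = 4), the smallest SD of the 10 genes. It lies on the plus strand at chr6:119236526-119352407.

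Plppr3, a relative of the lipid phosphate phosphatases that promotes branching of axons, reached the highest treated level of the 10 genes. Its DMSO values of 7.85, 3.36, 5.71 and 8.82 were followed by trametinib values of 445, 1543, 250 and 443 in lines #1, #3, #5 and #10. Line #3 combined the lowest DMSO value with the highest trametinib value, while lines #1 and #10 were nearly equal. The mean log2 change was 6.21 ± 1.52 (SD, n = 4), and the treated values spread over a highest to lowest ratio of 6.18, the widest of the 10 genes. Per kilobase its treated median was 102 normalized counts, second to Acta1. Plppr3 lies on the minus strand at chr10:79860475-79874634.

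Exons of Plppr3, Dchs2, Podxl2 and Fhod3 overlap exons of genes on the other strand, over 410, 1299, 1099 and 309 bases. The libraries were stranded, but whether counting used the strand is not given in the sources used here, and reads of both partners might not have been separated.

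Start regions from the RefSeq promoter table (build GRCm38.p6) are shown, since those sequences are a feature that the choice of genes did not use. Entries of 4 of the 10 genes were used here, with 6 windows in all, each running from 250 bases before to 50 bases after an annotated start. Capitals mark the CArG box bound by serum response factor, the TATA box (TATAAA) and the GC box (GGGCGG), each searched on both strands. The windows are shown from 5′ to 3′ on the strand of the gene, for Podxl2 the most upstream of 3.
Acta1, chr8:123894726-123895025, minus strand: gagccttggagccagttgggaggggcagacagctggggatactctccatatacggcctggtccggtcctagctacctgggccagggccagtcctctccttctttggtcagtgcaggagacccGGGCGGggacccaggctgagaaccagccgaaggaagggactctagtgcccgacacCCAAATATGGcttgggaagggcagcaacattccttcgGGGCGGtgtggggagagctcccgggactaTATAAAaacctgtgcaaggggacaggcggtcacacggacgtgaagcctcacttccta
Plppr3, chr10:79874585-79874884, minus strand: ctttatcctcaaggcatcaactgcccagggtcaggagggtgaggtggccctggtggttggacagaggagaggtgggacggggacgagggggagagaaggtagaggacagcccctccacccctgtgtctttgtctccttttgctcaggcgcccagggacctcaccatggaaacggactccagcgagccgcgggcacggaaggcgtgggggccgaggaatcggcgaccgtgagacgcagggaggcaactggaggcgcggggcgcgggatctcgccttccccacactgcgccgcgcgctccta
Dchs2, chr3:83127277-83127576, plus strand: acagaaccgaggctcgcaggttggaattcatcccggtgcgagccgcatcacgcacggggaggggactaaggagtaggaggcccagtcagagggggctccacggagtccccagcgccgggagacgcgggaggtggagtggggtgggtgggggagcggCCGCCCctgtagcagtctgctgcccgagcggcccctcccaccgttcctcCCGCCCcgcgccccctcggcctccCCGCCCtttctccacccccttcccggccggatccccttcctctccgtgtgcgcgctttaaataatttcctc
Podxl2, chr6:88874997-88875296, minus strand: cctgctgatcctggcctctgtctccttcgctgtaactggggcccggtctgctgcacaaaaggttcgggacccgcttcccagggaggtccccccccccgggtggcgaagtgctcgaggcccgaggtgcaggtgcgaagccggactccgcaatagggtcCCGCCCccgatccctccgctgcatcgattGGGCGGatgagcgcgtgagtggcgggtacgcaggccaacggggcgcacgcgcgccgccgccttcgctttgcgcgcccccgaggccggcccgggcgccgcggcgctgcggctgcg

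Acta1 stood apart from the other printed windows by its letters. It alone among the 6 windows held a CArG box (CCAAATATGG), which begins 97 bases upstream of the GENCODE start, and a TATA box, which begins 31 bases upstream of it. The RefSeq start that sets the window differs from the GENCODE start. Relative to the RefSeq start, the CArG box begins at -73 and the TATA box at -7. A CArG box was present in 1.63% and a TATA box in 13.6% of the 32851 windows in the whole RefSeq table. The Acta1 window also held the letters CATTCC, a TEAD site (GGAATG) on the other strand (14.7% of all windows) and the E-box CAGCTG (16.3%). GC boxes were found in 5 of the 6 windows, 3 of them windows of Podxl2, against 35.7% of all windows. The Dchs2 window held 3 and the Plppr3 window none. The 6 windows were 57.3% to 82.0% G and C, against a median of 52.7% over all windows. Letters searched without a match in any of the 6 windows were those of AP-1 (TGANTCA), the cAMP response element (TGACGTCA), the E-box CACGTG, ETS (CCGGAA), forkhead (TGTTTAC), the nuclear receptor element (AGGTCA) and the interferon-stimulated response element (GAAANNGAAA). The SMAD element CAGACA was in the Acta1 window and in 21.0% of all windows. It overlaps the E-box CAGCTG there by 2 letters. Matches are descriptions of letters, and no binding was measured.

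**Figure D2:**
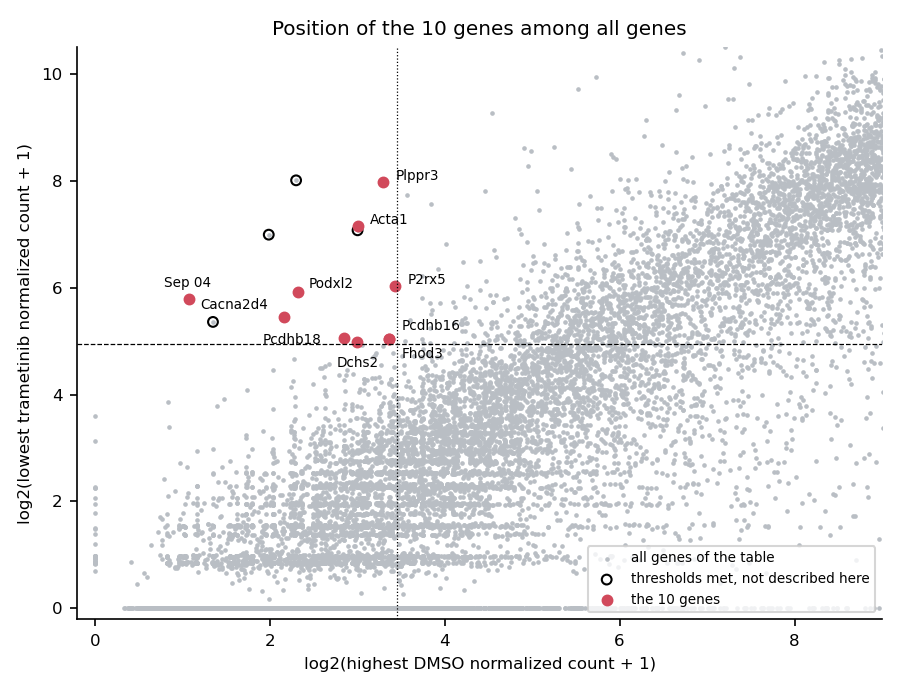
Each dot is a gene, placed by its highest DMSO value (horizontal) and its lowest trametinib value (vertical), both as log2(normalized count + 1). Red points are the 10 genes, open circles the 4 other genes that met both thresholds, the dotted line marks 10 and the dashed line 30 normalized counts. Fhod3, Pcdhb16, Dchs2 and Pcdhb18 lie close to the dashed line, and Plppr3 and Acta1 well above it.

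Several genes sat near the thresholds. Just inside the DMSO limit were P2rx5 (highest DMSO value 9.80), Fhod3 (9.31) and Pcdhb16 (9.31), and just outside were Nupr1l (10.7), Wnt9a (10.9) and AL589871.2 (11.2). Just inside the trametinib limit were Dchs2 (lowest trametinib value 30.8), Fhod3 (31.8) and Pcdhb16 (32.0), and just outside were Pcdhb22 (29.3), Rasl10b (28.9) and 4930539E08Rik (26.4). Wnt9a, a Wnt ligand, missed by 1 DMSO library although its lowest trametinib value was 213.

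The 10 genes were rare within the set of genes that were low under DMSO. Of 17322 genes with all DMSO values under 10, 15688 were also under 10 in every trametinib library, and 272 reached 30 in at least 1. Taken line by line, the thresholds were met by 237 genes in line #1, 412 in line #3, 251 in line #5 and 200 in line #10. These were 792 different genes, of which 564 met them in 1 line, 162 in 2 lines, 52 in 3 lines and 14 in all 4. The reverse pattern, 30 or more in all DMSO libraries and under 10 in all trametinib libraries, was met by 4 genes, 0.0116% of the table. They were Gm45184, Mcpt8, Prl2c3 and Sh2d1b1, named after their values were seen.

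**Figure D3:**
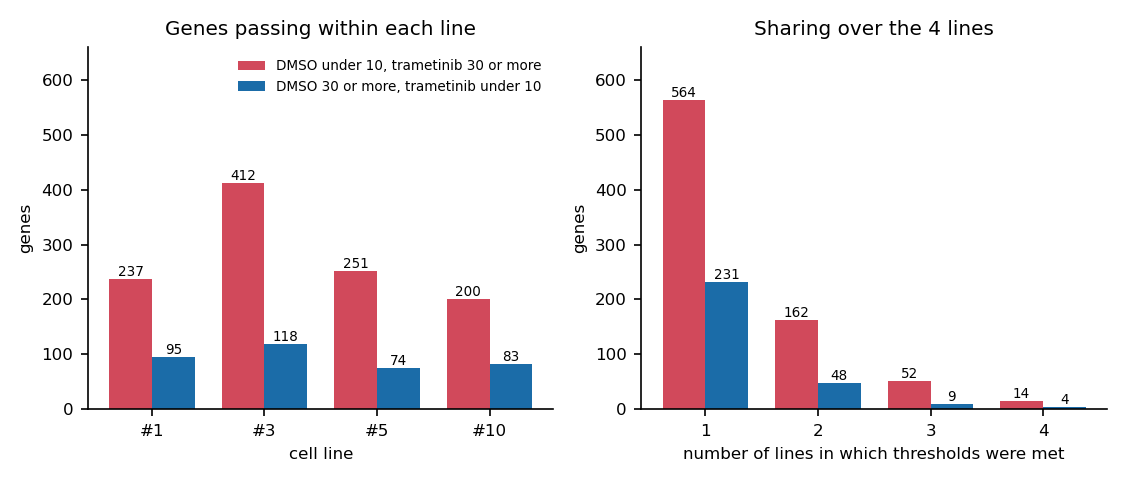
Left, number of genes that met the thresholds within each cell line, in red for DMSO under 10 and trametinib 30 or more and in blue for the reverse. Right, the same genes by the number of lines in which the thresholds were met. Line #3 has the tallest red bar (412), and the red bars fall from 564 genes in 1 line to 14 in 4 lines.

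The thresholds were met in 3 lines by 52 genes. In the remaining line, 29 of these failed on the trametinib value alone and 23 on the DMSO value. Platr22, among the 23, failed on both values in line #1 (DMSO 13.2, trametinib 26.4). The remaining line was line #10 for 21 of the 52 genes. Protocadherins made up 6 of the 52 (11.5%), against 0.200% of the table, a description of genes picked by their values. Among the others, the muscle kinase gene Srpk3, picked with its values in view, was at 0 in every DMSO library and at 55.7, 155, 11.0 and 81.9 with trametinib. Ldb3, a protein of the muscle Z-disc picked in the same way, was at 3.60, 3.86, 1.15 and 2.67 under DMSO and at 165, 118, 194 and 24.3 with trametinib. Line #10 was thus the line in which Ldb3 missed the threshold and line #5 the one in which Srpk3 did.

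The lines did not order the 10 genes alike. Line #3 had the highest trametinib value for 6 of the genes (Plppr3, Dchs2, Pcdhb16, Podxl2, Cacna2d4 and Pcdhb18) and the lowest for 3 (Acta1, Sep 04 and Fhod3). Line #1 was highest for Acta1, P2rx5 and Fhod3, line #10 for Sep 04, and line #5 for none. At or above 100 normalized counts were 7 of the genes in line #3, 4 in line #1, and 3 in each of lines #5 and #10. Acta1, Fhod3 and Sep 04 were therefore lowest in the line in which all 4 genes for adhesion proteins were highest. With 1 library per line and treatment, a difference between lines was not testable. The median log2 change of the 10 genes was 3.94 in line #1, 5.13 in line #3, 5.55 in line #5 and 4.50 in line #10, so line #5 had the largest median change although its median treated level, 64.4, was the lowest. Its median DMSO value was 1.21, against 2.83 to 4.80 in the other lines. The floor of 3 reads was 3.72 in the DMSO library of line #5, which had the fewest estimated reads, 29300000. The larger change in line #5 thus rests on a DMSO level that cannot be told from 0. The median of 2.83 in line #3 was also under its floor, 3.12.

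**Figure D4:**
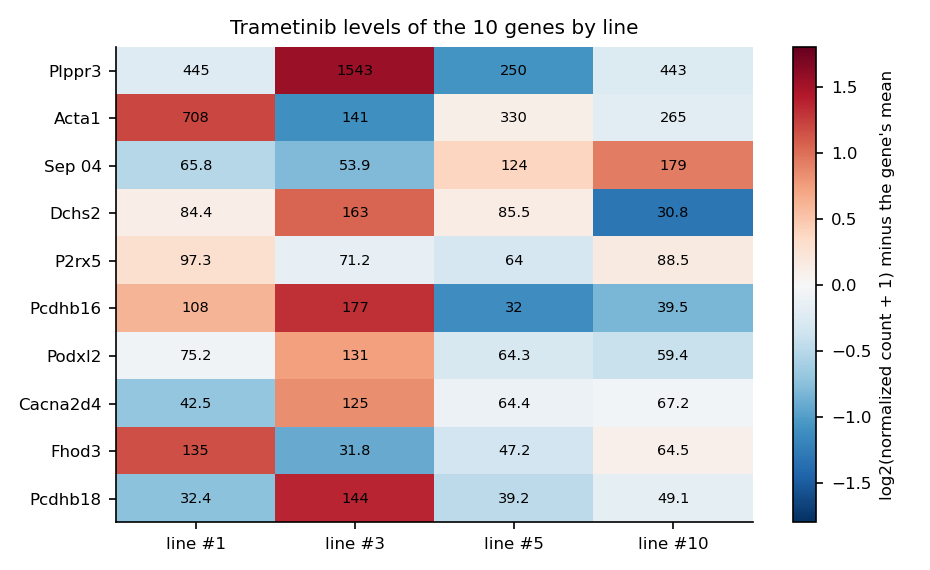
Trametinib values of the 10 genes by cell line. Numbers in the cells are normalized counts, and color gives log2(normalized count + 1) minus the mean of the gene over the 4 trametinib libraries. The column of line #3 is red for 6 genes and blue to pale for Acta1, Sep 04, P2rx5 and Fhod3.

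To ask whether other genes of the same families changed, non-members were tested in limma, a linear model fitted across all genes with the cell line as a block. P-values were Benjamini-Hochberg adjusted over the 15888 genes, where 27.3% of the genes passed as higher with trametinib, 25.6% as lower and 53.0% in either direction (threshold of 0.05). The families were listed after the 10 genes were known. By shared symbol stem, 41 non-members were in the table and 19 were tested, of which 14 passed as higher and 1 as lower. The count favors higher values, since 8 of the 14 had a DMSO mean under 10 and could enter the test only through trametinib. Of the 11 tested relatives with a DMSO mean of 10 or more, 6 passed as higher. The adjusted p-values treat the 4 lines as the replicates. Of the 14 genes called higher, 7 were protocadherin beta genes and 5 were calcium channel subunits.

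Of the 20 other protocadherin beta genes, 8 passed the filter and 7 of these passed as higher. These were Pcdhb20 (log2 change 4.27 ± 0.46 SE, adjusted p = 0.00068), Pcdhb17 (4.16), Pcdhb9 (3.96), Pcdhb7 (3.44), Pcdhb5 (3.29), Pcdhb19 (3.28) and Pcdhb22 (2.82), all at an adjusted p of 0.0082 or lower and called under each alternative in which they were tested. With a filter at a mean of 50, Pcdhb17 was the 1 that was tested, and the other 6 were not. Pcdhb14 had a log2 change of 0.98 (adjusted p = 0.11). The filter favored this outcome, since 19 of the 20 had a DMSO mean under 10 and could pass only through trametinib. Without a filter, 19 could be fitted, and 15 passed as higher, against 13.1% of all genes fitted. Levels were higher with trametinib in all 4 lines for 16 of the 20, against 19.4% of the table. Some of these differences lay under the floor of 3 reads, as for Pcdhb13 in line #5 (0 and 0.80). As with Pcdhb16 and Pcdhb18, line #3 was the highest treated line for 18 of the 20, and the summed level of the 20 genes went from 59.3, 41.8, 50.8 and 82.0 under DMSO to 493, 1488, 284 and 503 with trametinib in lines #1, #3, #5 and #10. Pcdhb17 lies between the pair, 1757 bases after Pcdhb16 and 11 bases before Pcdhb18, and was at 12.4, 9.37, 2.48 and 3.84 under DMSO, so line #1 kept it out of the 10 genes.

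Among the actins, Acta1 remained a minor species. Per kilobase it made up 0.00434% of the summed actin level under DMSO and 0.255% with trametinib, while Actb and Actg1, the actins of nearly all cells, were far above it in each library. Actb had a log2 change of -0.29 (adjusted p = 0.11) and Actg1 one of 0.43 (adjusted p = 0.024). Actg1 lost the call when the cell line was not a block (adjusted p = 0.38), after median centering and without line #1, #5 or #10 (0.0058 to 0.38 over all alternatives). The heart actin Actc1 was at or under 1.54 normalized counts in every library. Acta2 and Actg2 of smooth muscle passed as higher, by 6.55 and 3.94 on the log2 scale, but Actg2, with a DMSO mean of 0.48, entered the test only through trametinib.

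Acta1 is also a marker of skeletal muscle and stood on a list of 12 skeletal and heart muscle markers. The other 11 markers of that list summed to 1009 to 2956 normalized counts under DMSO and to 509 to 1296 with trametinib, lower in each line. Of the 11, 7 stayed under 10 in every library, and Myod1, the regulator of the muscle lineage, was at 0 in all 8. Of the 4 that were tested, 1 passed as lower and 1 as higher, shares near the 25.6% and 27.3% of all tested genes. Tnnt2 carried most of the sum and was the lower one (log2 change -1.37, adjusted p = 0.0011). Tnni1 was the higher one (1.33, adjusted p = 0.019), but not after quantile normalization, without line #3 or without line #10 (adjusted p 0.0061 to 0.082 over all alternatives). Ckm had a log2 change of 0.87 (adjusted p = 0.060) and passed as higher with equal totals and without the variance trend (adjusted p 0.0066 to 0.30 over all alternatives). Both Tnni1 and Ckm, with DMSO means of 5.62 and 8.33, entered the test only through trametinib, which favored a higher call. The 13 markers of smooth muscle and pericytes summed to 4467 to 12752 under DMSO and to 38409 to 94121 with trametinib, higher in all 4 lines, mostly through Cald1, with Kcnj8 at 0 in 7 of 8 libraries. Of these 13, 9 were tested and 6 passed as higher, against 27.3% of all tested genes, but 3 of the 6 (Synpo2, Notch3 and Cspg4) had a DMSO mean under 10 and entered the test only through trametinib. The part of such cells in the level of Acta1 was not tested.

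Other formins were set beside Fhod3 in the same fit. Of 12 other formins, 11 were tested, and its closest relative Fhod1 had a log2 change of 0.06 (adjusted p = 0.62). Daam1 passed as higher (0.82 ± 0.12 SE, adjusted p = 0.0018). Diaph1, Fmnl2 and Inf2 passed as lower, by 0.30, 0.77 and 0.29 on the log2 scale. Each lost the call without line #1, without line #10 and without the variance trend, and Fmnl2 and Inf2 also without line #5. Diaph1 and Inf2 lost it too with equal totals, after quantile normalization and when the cell line was not a block. Adjusted p went up to 0.12, 0.086 and 0.28 over the alternatives.

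Within the P2X family, P2rx4 was the main subunit in both treatments, at 87.0% of the summed level per kilobase under DMSO and 67.1% with trametinib, and its log2 change was 0.21 (adjusted p = 0.15). P2rx5 went from 1.32% to 18.2% of that sum. P2rx6 passed as higher (2.20 ± 0.44 SE, adjusted p = 0.0059), but with a DMSO mean of 3.39 it entered the test only through trametinib. P2rx3 also passed (1.17 ± 0.40 SE, adjusted p = 0.045), but not in 8 of the alternatives, among them leaving out line #1, #3 or #5 (adjusted p 0.032 to 0.26 over all). Of the alpha2delta subunits, Cacna2d1 held 97.9% of the summed level per kilobase under DMSO and 95.1% with trametinib. It passed as higher (1.34 ± 0.10 SE, adjusted p = 0.00029). Pore-forming calcium channel subunits Cacna1h, Cacna1g, Cacna1a and Cacna1e passed as higher too, by 3.49, 3.14, 1.01 and 0.82 on the log2 scale. Cacna1h, with a DMSO mean of 2.90, entered the test only through trametinib. Cacna1a lost the call when the cell line was not a block (adjusted p = 0.065), and Cacna1e lost it in 6 alternatives, among them no block (0.18) and leaving out line #1, #5 or #10 (adjusted p up to 0.27 over all).

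Podxl2 was higher with trametinib in each line, whereas its relative Podxl, or podocalyxin, was lower in each line. Podxl stood at 9422, 7241, 8248 and 4258 under DMSO and at 3108, 1517, 1812 and 1033 with trametinib, and passed as lower (log2 change -2.02 ± 0.12 SE, adjusted p = 0.00017). It still held 95.3% of the summed level of the family per kilobase with trametinib, against 4.02% for Podxl2. Cd34 had a log2 change of -0.77 (adjusted p = 0.11). Among the fat cadherins, the binding partners of the dachsous type, Fat1 was the most abundant and its log2 change was 0.01 (adjusted p = 0.94). Fat4, the fat cadherin best known to bind dachsous cadherins, had a log2 change of 0.57 (adjusted p = 0.25), and Fat2 passed as lower (-3.73 ± 0.41 SE, adjusted p = 0.00072), from 174, 30.3, 189 and 710 to 4.91, 2.80, 8.79 and 108. Plppr2, the main relative of Plppr3, passed as higher (1.56 ± 0.24 SE, adjusted p = 0.0020), and Plppr3 went from 1.47% to 34.9% of the summed level of the family per kilobase. Plppr4 had a log2 change of 0.09 (adjusted p = 0.93). Of the lipid phosphate phosphatases, Plpp2 (-1.01, adjusted p = 0.00036) and Plpp3 (-0.87, adjusted p = 0.014) passed as lower. Plpp3 lost the call when the cell line was not a block (adjusted p = 0.11). Plpp1 (0.47, adjusted p = 0.055) passed only with equal totals and without line #10.

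**Figure D5:**
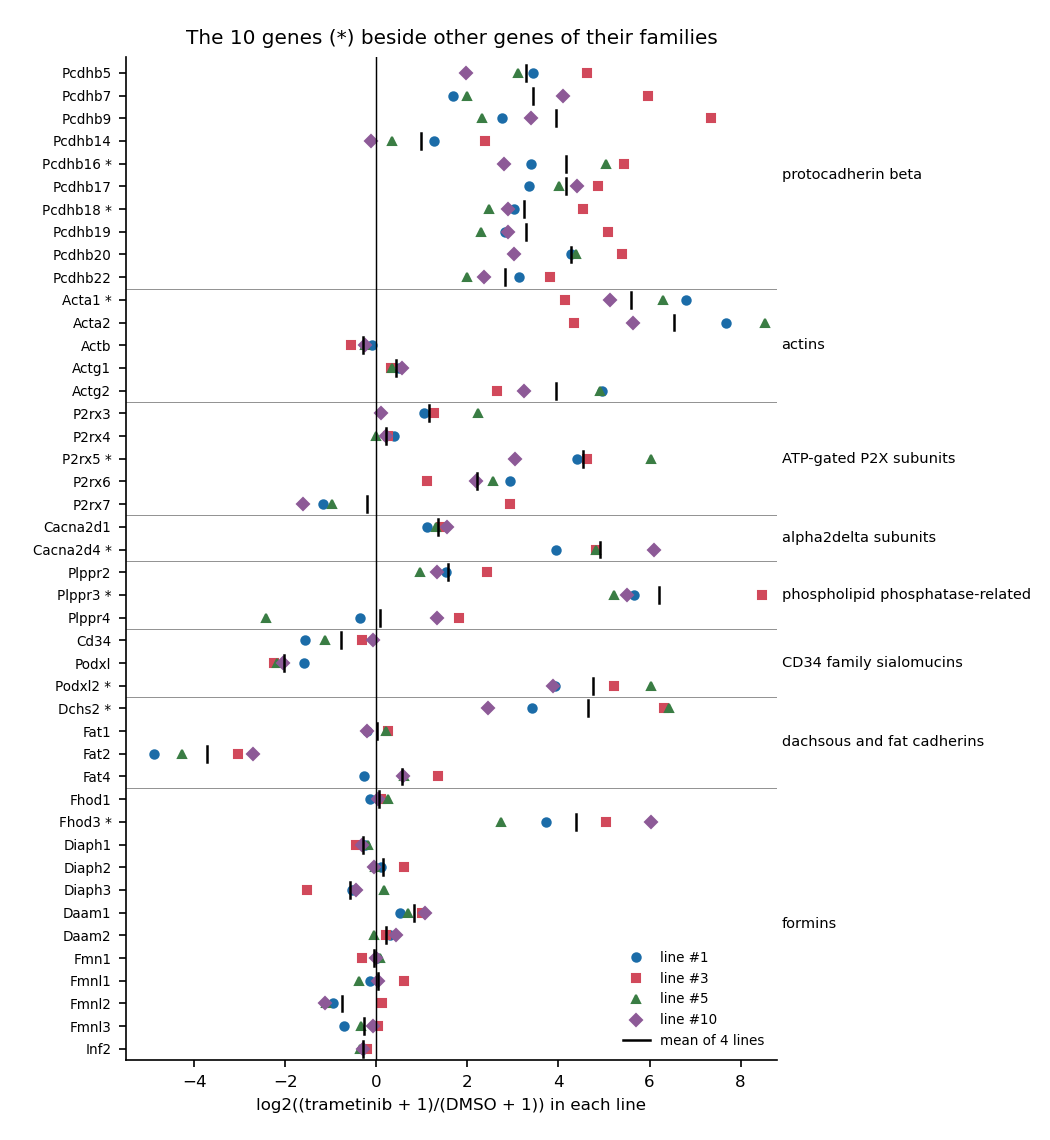
Change in each cell line, as log2((trametinib + 1)/(DMSO + 1)) on the horizontal axis, of the genes of 8 families with a mean of at least 10, with an asterisk at each of the 9 genes low under DMSO that belong to them (Sep 04 is not drawn). Points are cell lines and the bar is their mean. All protocadherin beta means lie right of 0, most formins lie near 0, and Podxl and Fat2 lie left of 0.

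Genes known from neurons were also seen in the marker lists. The 10 markers of neural and Schwann cells summed to 578 to 1628 normalized counts under DMSO and to 2190 to 4932 with trametinib, higher in all 4 lines. The sum came mostly from Ncam1 and Tubb3, which were the 2 of 4 tested markers that passed as higher, against 27.3% of all tested genes. Of the 10 markers, 3 stayed under 10 in every library, among them the Schwann cell regulator Sox10, at 0 in 6 of 8 libraries, and the neuronal marker Rbfox3, at 0 in all 4 trametinib libraries. The 6 mesothelial markers, mostly Msln, summed to 40097 to 47438 under DMSO and to 60529 to 113660 with trametinib. All 6 were tested, and 3 passed as higher. Of 5 tested endothelial markers, 2 passed as higher, Tek and Vwf, both highest with trametinib in line #3 (805 and 948). Tek, with a DMSO mean of 8.21, entered the test only through trametinib. Summed, the endothelial markers were higher in 3 lines. Of the 6 tested fibroblast markers, 1 passed as higher (Col1a1) and 1 as lower (Fbln1, log2 change -0.60, adjusted p = 0.0052). Summed, the fibroblast markers were higher in 1 line. Of the 5 tested immune markers, 1 passed as higher (Csf1r). The part of any of these lists in the levels of Plppr3, Pcdhb16 and Pcdhb18 was not tested.

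Of the 10 genes, 9 had a known position, and their neighbors on the chromosome were tested in the same fit. A neighbor was the nearest gene on either side that did not overlap, was none of the 10 and had a mean of 10 or more. It need not be the adjacent gene, and Sfrp2 lay 409112 bases from Dchs2. Of 17 tested neighbors, 4 passed as higher and 7 as lower, and only 4 as lower when the cell line was not a block. The 4 were 23.5% of the neighbors, near the 27.3% over all tested genes, and the 7 were 41.2%, against 25.6%. Of the 4, Pcdhb17 and Pcdhb19 are protocadherins already counted above, with DMSO means of 7.03 and 6.10, and entered the test only through trametinib. Mocos, 1 of the 4, lost the call in 8 alternatives (adjusted p 0.023 to 0.43 over all). Apart from Pcdhb17 and Pcdhb19, the largest changes past the threshold were those of Abtb1, 574 bases from Podxl2 (log2 change 1.47 ± 0.14 SE, adjusted p = 0.00047), of Mcm2 on the other side of Podxl2 (-1.32 ± 0.18 SE, adjusted p = 0.0016), a subunit of the replication helicase, and of Haspin near P2rx5 (-1.04 ± 0.14 SE, adjusted p = 0.0014), a mitotic kinase. Nup133, the gene 2372 bases from Acta1, passed as lower, from a mean of 4038 to 2299 normalized counts. Adipor2, 743 bases from Cacna2d4, had a log2 change of -0.01 (adjusted p = 0.96).

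Broader classes set by gene symbol were counted without the 10 genes. Over all tested genes 27.3% passed as higher and 25.6% as lower, or 13.9% and 14.8% when the cell line was not a block. Of 108 other ion channel genes, the class of P2rx5 and Cacna2d4, 43 passed as higher and 12 as lower, with a median log2 change of 0.47 (21 and 5 when the cell line was not a block). Of 227 other genes for matrix, adhesion and proteases, the class of Pcdhb16 and Pcdhb18, 125 passed as higher and 23 as lower, with a median of 0.97 (71 and 14 without the block). Of 79 other muscle and actin cytoskeleton genes, the class of Acta1, 40 passed as higher and 8 as lower, with a median of 0.67 (22 and 5 without the block). The median over all tested genes was 0.07. All 9 symbol classes counted, 6 of them without any of the 10 genes, had a higher share of calls upward than the 27.3% over all genes (32.2% to 55.1%), so the excess was not particular to the classes of the 10 genes. Of the genes called higher in these 3 classes, 7, 25 and 12 had a DMSO mean under 10 and entered the test only through trametinib.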

How the data were processed

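RNA was sequenced from 4 primary PDAC lines with DMSO or MEKi (trametinib), 8 libraries in all, prepared as stranded mRNA libraries. A further allele of the mouse model is not reported here. The authors deposited normalized counts per gene symbol, a signal scaled between libraries, without a filter on low genes. The notes of the submitters name CASAVA 2.17, Salmon 0.12, DESeq2 1.18 and mm10. The annotation and the exact scaling are not given in the sources used here.

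All values were computed from this table. Raw counts were not used here, so no count model was run. The change per line was log2((trametinib + 1)/(DMSO + 1)). Genes that were not chosen by the rule were tested with limma 3.58.1 in R 4.3.3 (lmFit, eBayes with trend, two-sided) on log2(value + 1), with the cell line as a block, for 15888 genes with a mean of 10 or more, with Benjamini-Hochberg adjustment and a threshold of 0.05. Both libraries of a number come from 1 cell line, and their deviations from the treatment means correlated at 0.63 to 0.72 across 15888 genes. On simulated data the fit called 85 of 96 genes with a log2 change of 1, 103 of 103 with a change of 2 and 9 of 15763 unchanged genes, among 15962 genes. The simulated counts had the same dispersion for all genes, few changed genes and no difference in response between lines. In the real data 53.0% of the genes were called, so these rates need not hold there. Positions and exon lengths were those of GENCODE M21 (GRCm38), matched by symbol, and promoter windows those of RefSeq (GRCm38.p6). Entries for P2rx5, Cacna2d4 and Sep 04 were not used here, nor was sequence of Fhod3, Pcdhb16 and Pcdhb18. Python 3.11.15, numpy 2.4.6, pandas 2.3.3 and matplotlib 3.10.9 were used.

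The members and lists were chosen with earlier results of these data known. Named were all 10 members, the 3 genes nearest each threshold, and the 5 relatives and 5 neighbors with the largest change among those that passed. Also named, with their values known, were further neighbors and genes of families listed after the members were known. Alternatives were other thresholds, pseudocounts, scalings, filters and variance models, no replicate block, and leaving out each line.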

Additional observations from a re-analysis of the deposited data

Results flagged for a closer look

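The log2 change of Plppr3 in line #3, 8.47, lay far from those of the other 3 lines, which ran from 5.22 to 5.66. The gap between line #3 and the nearest line took up 0.866 of the whole range of the 4 values. This is a description, since the same values chose the gene. Among 30 sets of 4 values examined in this way for the 10 genes it was the 1 that stood out. Chance flags about 1 in 20, or 1.5 of 30, so nothing is read from it. Line #3 had both the lowest DMSO value of Plppr3 (3.36) and the highest trametinib value (1543).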

How the results depend on the processing

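The 10 genes depend on the thresholds and the scaling, which set their number. With DMSO under 5 there were 3 genes, with DMSO under 20 there were 41, with trametinib at 20 or more 22, and at 50 or more 5. Quantile normalization left 5 (Dchs2, Fhod3, P2rx5, Pcdhb16 and Plppr3 were lost). Equal totals gave 11. On reads estimated from the step of each library, an alternative chosen after seeing the data, 9 genes met the thresholds, 6 of them from the 10. Leaving out 1 line in turn gave 19 to 27 genes (27 without line #10). That these held all 10 follows from having fewer conditions and says nothing of stability. The median log2 change of the 10 genes was 5.83 with a pseudocount of 0.1 and 3.47 with one of 5, and 4.55 to 5.06 when a line was left out.

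Without the replicate block, 2205 genes passed as higher and 2347 as lower, neighbors called lower numbered 4, ion channels 21 and 5, matrix, adhesion and protease genes 71 and 14, and muscle and actin genes 22 and 5. A filter at a mean of 50, under which fewer genes were tested, left 6 relatives called higher. Leaving out a line gave 3383 to 4195 genes higher and 3302 to 4007 lower. Equal totals shifted the median log2 change of all tested genes by 0.13 and quantile normalization by -0.10. Of all 8416 called genes, 2 turned direction in at least 1 alternative, and none of the 42 called relatives, family members, neighbors and date rows or of the 28 called cell type markers did. With 1 library per line and treatment, values at the floor of 3 reads cannot be told from 0.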
